A study of Mus musculus with 24 samples.

Results

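Transcript levels after TCA and after vehicle were compared by RNA-seq in C127 cells (C127l in the labels), an established line from a mouse mammary tumour. The cells had lost their own glucocorticoid receptor and carried GFP-mGRwt, a GFP-tagged wild-type mouse receptor (wt). The comparison used 6 of the 24 samples of the series, 3 given vehicle and 3 given 100 µM TCA for 2 h, chosen by those labels alone. All had been kept in charcoal-stripped serum, which is poor in steroids, for 24 h. The labels write only TCA, which was read here as taurocholic acid because the series title names bile acids. A second line, in which the receptor was GFP-mGRtetra (tetra, a form the labels do not describe), gave 3 vehicle and 3 TCA libraries at the same dose and time. The wt line also gave 3 libraries with 100 nM corticosterone (Cort) for 2 h and 3 with TCA plus Cort. The labels do not say whether a line is 1 clone, whether replicates came from separate cultures, or whether the groups were grown side by side. A difference between cultures and an effect of TCA therefore cannot be told apart, and p-values measure only the spread between these libraries.

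Taurocholic acid is a taurine-conjugated bile salt made in the liver, and bile acids act on cells through the nuclear receptor FXR (Nr1h4), the membrane receptor TGR5 (Gpbar1) and the vitamin D receptor, among others. The glucocorticoid receptor (Nr3c1) is a nuclear receptor that binds corticosterone in the mouse and then switches target genes on or off. Cells under amino acid shortage, endoplasmic reticulum stress or other strain slow protein synthesis through eIF2alpha phosphorylation and make the transcription factor ATF4, which turns on genes for amino acid supply. This programme is called the integrated stress response.

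The receptor gene Nr3c1 (chromosome 18, 39410545 to 39489776) had 5266, 5288 and 4923 in vehicle and 4042, 3922 and 3992 with TCA, and the groups did not overlap (1.29-fold lower, limma adjusted p = 9.99e-06). These reads do not separate the GFP-tagged transgene from what remains of the cell's own gene.

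The 6 libraries held 22454000 to 27068000 exon reads, with 15795 to 16187 genes detected. Exon reads made up 65.6 to 67.4% of mapped tags in the vehicle libraries and 70.6 to 73.5% in the TCA libraries, so the ranges did not overlap, and the part of this in the results was not tested. Of all exon reads, 20.8 to 22.8% in vehicle and 21.3 to 27.9% with TCA came from Rn45s, the 45S ribosomal precursor. TCA library 3 had the highest value of both shares. Its chi-square per gene against the other TCA libraries was 17.5 and 33.8, against 6.29 between those and at most 6.81 between vehicle libraries. Rn45s reads and library totals that include them entered this chi-square, so it is not separate from the Rn45s share. Pearson r of log2 counts was 0.9943 in both pairs with TCA library 3. It was 0.995 between the other TCA libraries and 0.9938 to 0.9945 between vehicle libraries. Without TCA library 3, 7576 genes were called, 3788 in each direction, in place of the 7303 given below. Of 20 epithelial markers, 15 were below the filter and 4, Epcam, Krt18, Krt5 and Elf3, were at 0 in all 6 libraries, while the mesenchymal markers Vim and Col1a2 had vehicle means of 108879 and 42566. Adipocyte markers Adipoq, Cebpa and Pck1 and the mast cell markers Kit, Cpa3, Fcer1a, Ms4a2, Cma1 and Mcpt4 were at 0 as well. These are only the members without reads, 3 of 31 lipid droplet and adipocyte genes and 6 of 11 mast cell markers. In these lists 21 and 2 genes were tested, among them Plin4, Pparg and Tpsab1, whose vehicle counts are given below. Values below are normalised read counts, given as mean ± SD with n = 3, and a gene was called at a Benjamini-Hochberg adjusted p below 0.05 from limma over all 12725 genes with a mean of at least 10. Coordinates are those of mm10.

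TCA and vehicle libraries differed across much of the transcriptome. The test called 7303 of the 12725 genes (57.4%), and with TCA 3670 of these were higher (28.8%) and 3633 lower (28.6%). The counts of called members in the lists below are to be read against these shares. Most of these differences were small, with a median fold of 1.31 among the rises and 1.38 among the falls. Called differences of at least 2-fold numbered 771 (6.06%), 238 higher (1.87%) and 533 lower (4.19%), and differences of at least 4-fold were 38 rises and 85 falls. Gsta3, which was called and fell to 0 in all 3 TCA libraries, has no ratio and is left out of these fold counts. When libraries were scaled to their exon reads without Rn45s in place of size factors, calls of higher genes numbered 4760 and of lower genes 2825, and the median log2 ratio of all genes moved from 0.002 to 0.10. In 7927 genes (62.3%) the 3 vehicle values and the 3 TCA values did not overlap.

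**Figure D1:**
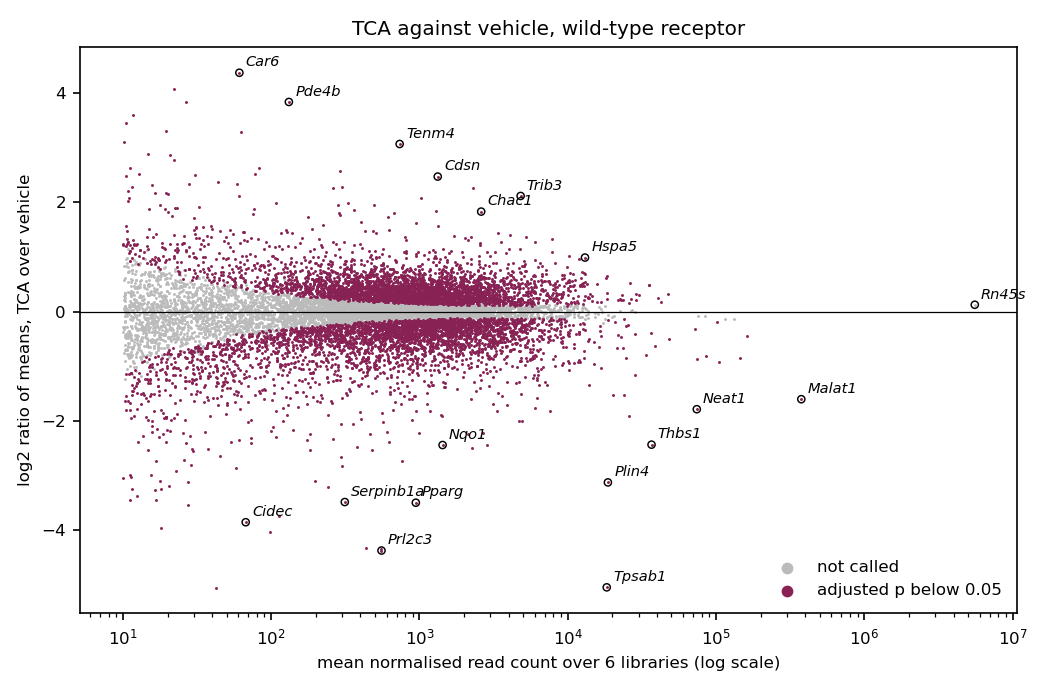
Log2 ratio of the mean normalised counts (TCA over vehicle, 3 libraries each) against the mean count over the 6 libraries for the genes tested in wt except Gsta3, which had 0 reads in the TCA libraries. Purple points are the called genes and circled points are named. The falls reach further than the rises, and Tpsab1, Plin4 and Thbs1 combine a high count with a large fall.

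The largest rises came from genes of unlike roles. Pde4b, a phosphodiesterase that degrades cyclic AMP, had counts of 10.9, 19.98 and 20.9 in vehicle libraries 1 to 3 and 257, 249 and 232 in TCA libraries 1 to 3. The groups stood far apart, and Pde4b was 14.3-fold higher with TCA (adjusted p = 4.66e-10). Car6, a secreted carbonic anhydrase, went from 5.63 ± 3.35 to 116 ± 27.0 and Tenm4, a teneurin cell-adhesion protein, from 157 ± 28.5 to 1313 ± 129 (8.37-fold higher). The alarmin cytokine gene Il33 rose from 11.6 ± 1.60 to 113 ± 28.2. Cdsn, which encodes corneodesmosin of the skin barrier, rose 5.54-fold, the copper-carrying ferroxidase gene Cp 5.94-fold, the integrin beta 7 gene Itgb7 5.71-fold, the cholesterol-esterifying enzyme gene Soat2 3.98-fold, and the ferritin receptor gene Scara5 3.94-fold. The casein gene Csn3 rose from 89.9 ± 6.06 to 433 ± 35.2, and Csn1s1, another milk casein, from 15.9 ± 2.85 to 46.0 ± 8.83. The growth arrest gene Gadd45a was 4.78-fold higher, and E230016M11Rik, 4.24-fold higher, overlaps it, so that the reads of the 2 could not be assigned with certainty. The transcription factor genes Nfil3 (3.50-fold), Arid5a (3.85-fold) and Snai2 (3.12-fold) rose as well.

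Genes of the integrated stress response were higher with TCA in nearly all cases. Of 34 listed, 30 were tested, 27 were called higher and 1 lower, and 17 were called at least 2-fold higher. Their median log2 ratio was 1.07, against 0.002 for all genes. The remaining members were Slc7a3, a low-count amino acid transporter gene, which fell from 19.5 ± 2.08 to 10.6 ± 0.682, and 2 that were not called. Slc7a3, like the genes of this list below the filter, was named after its values were seen, and its call was lost without any 1 of 5 libraries (adjusted p = 0.0515 to 0.0761 without vehicle library 1 or 2 or any TCA library). Those 2 were Atf5, a transcription factor gene of the same pathway, at 21246 ± 516 and 19965 ± 727 (adjusted p = 0.136, but 0.0161 without TCA library 3), and the stress hormone gene Gdf15, at 45.8 ± 14.2 and 53.4 ± 4.28 (adjusted p = 0.365). Atf3, Cth, Stc2 and Vldlr were below the filter, with Stc2 and Vldlr at 0 in all 6 libraries. The summed count of the list was 99163 to 100573 in the vehicle libraries and 176346 to 187591 in the TCA libraries. At a filter of 50, 26 members were called higher and 0 lower.

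Promoters of 3 genes of this response and of 2 genes described further on are printed because they carry the short motif that the literature ties to each group. They are RefSeq promoters of build GRCm38.p6, 250 bases before to 50 bases after the start, written 5′ to 3′ on the gene's strand. Capitals mark the motif. In Chac1 (chr2:119350992-119351291, + strand), Trib3 (chr2:152344011-152344310, - strand) and Gars (chr6:55037751-55038050, + strand) it is TGATGNAA, the C/EBP-ATF response element (CARE) bound by ATF4, read on either strand.
Chac1: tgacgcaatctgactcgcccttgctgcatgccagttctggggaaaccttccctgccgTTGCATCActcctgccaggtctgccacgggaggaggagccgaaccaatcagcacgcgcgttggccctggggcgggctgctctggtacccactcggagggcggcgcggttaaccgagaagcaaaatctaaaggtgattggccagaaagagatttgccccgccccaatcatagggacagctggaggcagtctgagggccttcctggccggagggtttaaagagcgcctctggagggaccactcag
Trib3: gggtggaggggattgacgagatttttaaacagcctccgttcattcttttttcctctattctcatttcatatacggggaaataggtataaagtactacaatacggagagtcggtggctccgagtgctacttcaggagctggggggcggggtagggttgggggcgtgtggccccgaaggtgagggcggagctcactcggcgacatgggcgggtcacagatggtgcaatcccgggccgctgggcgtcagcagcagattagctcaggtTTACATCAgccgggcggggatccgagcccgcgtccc
Gars: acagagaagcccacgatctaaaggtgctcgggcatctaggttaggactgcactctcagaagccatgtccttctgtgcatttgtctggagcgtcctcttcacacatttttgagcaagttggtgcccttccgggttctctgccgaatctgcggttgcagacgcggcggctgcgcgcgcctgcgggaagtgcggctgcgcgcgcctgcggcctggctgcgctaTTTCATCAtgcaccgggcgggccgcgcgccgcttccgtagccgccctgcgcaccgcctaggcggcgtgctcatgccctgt
In Hspa5 (chr2:34771840-34772139, + strand) the capitals mark the endoplasmic reticulum stress element (ERSE) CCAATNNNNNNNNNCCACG, and in Lamp1 (chr8:13158911-13159210, + strand) the E-box CACGTG, the core of the site bound by TFEB and other basic helix-loop-helix factors.
Hspa5: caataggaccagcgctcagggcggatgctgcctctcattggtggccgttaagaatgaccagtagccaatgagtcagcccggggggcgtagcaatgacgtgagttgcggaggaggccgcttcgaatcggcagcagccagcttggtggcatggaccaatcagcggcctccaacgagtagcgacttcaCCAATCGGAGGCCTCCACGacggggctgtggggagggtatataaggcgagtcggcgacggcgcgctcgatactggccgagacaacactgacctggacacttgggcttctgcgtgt
Lamp1: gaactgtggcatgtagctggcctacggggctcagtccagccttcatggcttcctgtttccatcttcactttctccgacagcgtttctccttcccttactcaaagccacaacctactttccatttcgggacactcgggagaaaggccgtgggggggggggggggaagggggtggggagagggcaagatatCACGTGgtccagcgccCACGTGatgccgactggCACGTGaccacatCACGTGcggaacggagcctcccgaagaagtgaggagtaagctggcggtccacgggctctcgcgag
The Chac1 match began 193 bases before the start, the Trib3 match 14 bases after it, the Gars match 30 bases before it and the Hspa5 match 65 bases before it. Lamp1 held 4 E-boxes, the first beginning 61 bases before the start. A promoter within 50 bases of the start listed in the deposited table was found for 9535 of the 12725 genes. CARE letters were in 7 of 26 such promoters of the stress response list (26.9%), in 5 of 12 of the cytosolic aminoacyl-tRNA synthetases (41.7%) and in 198 of all 9535 (2.08%). A match says only that these letters are present, and the lists hold genes already known for these elements.

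Atf4 itself (chromosome 15, 80255184 to 80257545), the transcription factor at the head of the response, had counts of 9529, 10017 and 9629 in vehicle and 16312, 15647 and 15554 with TCA. The groups did not overlap, and Atf4 was 1.63-fold higher (adjusted p = 2.04e-08). Ddit3, which encodes the stress factor CHOP, had 1025, 1066 and 1062 in vehicle and 1818, 1899 and 1899 with TCA, 1.78-fold higher (adjusted p = 1.08e-08). Both folds were below those of Trib3 and Chac1, which stand downstream.

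Trib3 (chromosome 2, 152337425 to 152344060), a pseudokinase that feeds back on ATF4, had 1638, 1913 and 1862 in vehicle and 7775, 7646 and 8021 with TCA. Chac1 (chromosome 2, 119351242 to 119354327), an enzyme that degrades glutathione, had 1130.0, 1133 and 1173 and 4058, 3873 and 4272, with narrow spread in both groups. Ppp1r15a, the phosphatase subunit that reverses eIF2alpha phosphorylation, had 569, 596 and 519 and 1892, 2258 and 1891. Each of the 3 was more than 3-fold higher with TCA, at 4.33-fold, 3.55-fold and 3.59-fold. Sesn2 and Ddit4, which restrain the growth kinase mTORC1, rose 2.95-fold (adjusted p = 1.15e-09) and 2.58-fold (adjusted p = 5.37e-11). Fgf21, a stress-induced hormone, stayed low but rose from 3.90 ± 2.66 to 19.0 ± 8.08 (adjusted p = 0.00171).

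Genes of amino acid supply rose as well. Asparagine synthetase, Asns, had 4956, 5138 and 4804 in vehicle and 10224, 10539.8 and 11005 with TCA, 2.13-fold higher (adjusted p = 3.7e-10). In the pathway from glucose to serine and glycine, Phgdh rose 2.40-fold, Psat1 1.93-fold, Psph 2.57-fold and Shmt2 2.52-fold, and the mitochondrial folate enzyme gene Mthfd2 rose 2.39-fold. The proline enzyme genes Aldh18a1 and Pycr1 rose 2.10-fold and 2.21-fold. Among transporters, the cystine carrier gene Slc7a11 rose 2.14-fold, its partner Slc3a2 2.21-fold, the leucine carrier gene Slc7a5 1.95-fold, the arginine carrier gene Slc7a1 2.01-fold and the glutamine carrier gene Slc38a2 1.59-fold. Phgdh, Psat1, Mthfd2, Aldh18a1, Pycr1, Slc3a2, Slc7a5, Slc7a1 and Slc38a2 were chosen for mention after their values were seen.

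**Figure D2:**
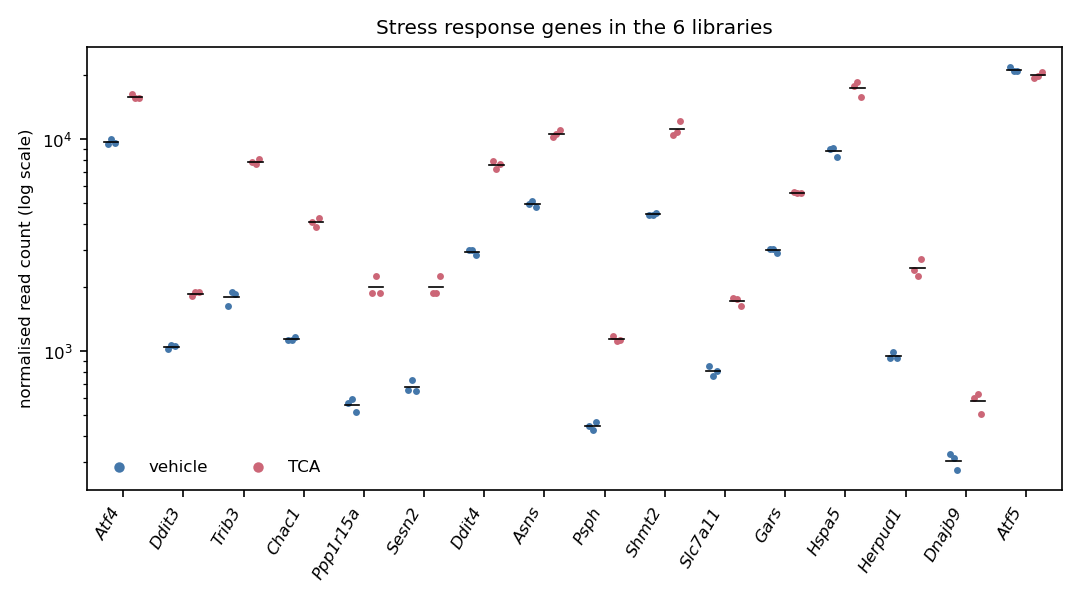
Normalised read counts (log axis) of 16 stress response genes in the 3 vehicle libraries (blue) and the 3 TCA libraries (red), with a black line at each group mean. For 15 of them the TCA libraries lie above all vehicle libraries, and for Atf5 they do not.

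The cytosolic aminoacyl-tRNA synthetases, which charge tRNAs with amino acids, were called higher for 19 of 20 genes and lower for 1, with a median log2 ratio of 0.55. None reached 2-fold. The glycine enzyme gene Gars had 3043, 3048 and 2919 in vehicle and 5663, 5549 and 5569.8 with TCA, 1.86-fold higher (adjusted p = 1.01e-09). Vars, Wars, Tars, Nars and Lars rose between 1.76-fold and 1.85-fold. Qars, the glutamine enzyme gene, was the 1 that fell, at 1928 ± 29.3 and 1676 ± 46.4 (1.15-fold lower), and was named after its value was seen. Its call was lost when libraries were scaled to exon reads (adjusted p = 0.0619). Around eIF2 itself, 7 of 12 kinase and translation factor genes rose and 2 fell. The eIF2 subunit genes Eif2s2 and Eif2s1 rose 1.79-fold and 1.47-fold, and the kinase gene Eif2ak3 (PERK) 1.253-fold, while the kinase genes Eif2ak4 (GCN2) and Eif2ak2 (PKR) were 1.22-fold lower and 1.20-fold lower. The Eif2ak2 call was lost under that scaling (adjusted p = 0.101) and without vehicle library 1 or 2 (0.0732 and 0.0508).

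Endoplasmic reticulum chaperones and degradation factors rose in 17 of 24 genes and fell in 1, with a median log2 ratio of 0.29. Hspa5, which encodes the chaperone BiP, had 8951, 9103 and 8230.0 in vehicle and 17843, 18499 and 15792 with TCA, 1.98-fold higher (adjusted p = 1.37e-08). Herpud1, a degradation factor of the reticulum, rose most in the list, from 949 ± 36.1 to 2466 ± 247 (2.60-fold). Dnajb9 rose 1.91-fold, the stress sensor gene Ern1 (IRE1) 1.59-fold, Edem1 1.58-fold, Manf 1.56-fold and Hsp90b1 1.501-fold. The sensor gene Atf6 was the only member called lower (1.14-fold lower, named after its value was seen, adjusted p = 0.076 when scaled to exon reads), and Pdia6 (7416 ± 134 and 7682 ± 307), Sel1l and Syvn1 were not called. Pdia6 was called higher when scaled to exon reads (adjusted p = 0.0162), and Syvn1 lower without TCA library 3 (0.0162). The endoplasmic reticulum stress element was found in 9 of 21 promoters of the list (42.9%) and in 19 of all 9535 (0.199%). Heat shock chaperone genes, cytosolic and mitochondrial, were split, 8 of 14 higher and 3 lower. Hsp90aa1 rose 1.65-fold and the mitochondrial chaperone gene Hspd1 1.60-fold, Bag3, a co-chaperone of protein clearance, fell (1.80-fold lower), and Hspa1b, the heat-inducible HSP70, had 139.7 ± 19.2 and 170.4 ± 8.40 (adjusted p = 0.0578). Hspa1b was called higher without the intensity trend (adjusted p = 0.0414), when scaled to exon reads (0.0172) and without vehicle library 3 (0.0451).

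Genes of growth and division were higher with TCA by small amounts. All 21 ribosome biogenesis genes were called higher, with a median log2 ratio of 0.48. The nucleolar protein gene Npm1 had 5681, 6139.6 and 5329 in vehicle and 11331, 11534 and 8974 with TCA (1.86-fold higher), and the RNA polymerase I subunit gene Polr1b rose 1.71-fold. Dkc1, Polr1a, Nop58, Ncl, Nolc1 and Fbl rose between 1.47-fold and 1.69-fold. Myc, the growth factor-driven transcription factor of that programme, rose 1.36-fold (adjusted p = 3.09e-06). Of 83 ribosomal protein genes, by contrast, 58 were not called, 20 were higher and 5 lower, with a median log2 ratio of 0.05. Scaled to exon reads, 38 were higher and none lower, and without TCA library 3 the count of higher genes was 32. Without vehicle library 1 or 3, 10 and 2 were lower.

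Mitosis genes rose in 26 of 30 cases with none lower, and replication genes in 26 of 32 with 1 lower, at median log2 ratios of 0.33 and 0.37. Aurka, the kinase of spindle poles, had 858, 847 and 904 in vehicle and 1471, 1442 and 1459.8 with TCA (1.68-fold higher), Bub1 rose 1.55-fold, Ccnb1 1.47-fold and Foxm1 1.44-fold. Among replication genes, Gins1 rose 1.58-fold, the primase gene Prim1 1.45-fold and the helicase gene Mcm2 1.42-fold. Rrm2, a ribonucleotide reductase subunit, went the other way, from 11305 ± 396 to 7236 ± 513 (1.56-fold lower, adjusted p = 2.67e-07). Mki67, the proliferation antigen, was at 15339.6 ± 572 and 15051 ± 1239.9 (adjusted p = 0.697). Replication-dependent histone genes, single counts of which are uncertain because the copies are alike, were higher in 63 of 66 cases and lower in 1, with a median of 0.54 and with Hist1h1a 2.64-fold higher.

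Glycolysis and hypoxia genes were higher in 17 of 23 cases and lower in 3. Pfkfb3, which makes the activator of phosphofructokinase, had 88.2, 64.2 and 92.8 in vehicle and 254, 279.5 and 281 with TCA, 3.32-fold higher (adjusted p = 8.37e-08). The vessel growth factor gene Vegfa rose 1.66-fold, Pdk1 1.63-fold, Pgk1 1.46-fold and Ldha 1.44-fold, while Hif1a itself was at 3129 ± 128 and 3262 ± 56.7 (adjusted p = 0.29, but 0.0139 with a rise when scaled to exon reads). Nuclear-encoded respiratory chain subunits were lower in 49 of 81 cases and higher in 6, with a median log2 ratio of -0.23. Ndufa13 was 1.61-fold lower and Ndufv3 1.60-fold lower. No fall reached 2-fold, while 3 low-count members rose by more: Cox7b2 from 9.19 ± 0.415 to 51.9 ± 7.25, Cox6a2 from 20.7 ± 8.55 to 58.8 ± 10.8 and Ndufa4l2 from 20.6 ± 4.72 to 53.7 ± 4.88. Scaled to exon reads, 35 were lower and 10 higher.

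**Figure D3:**
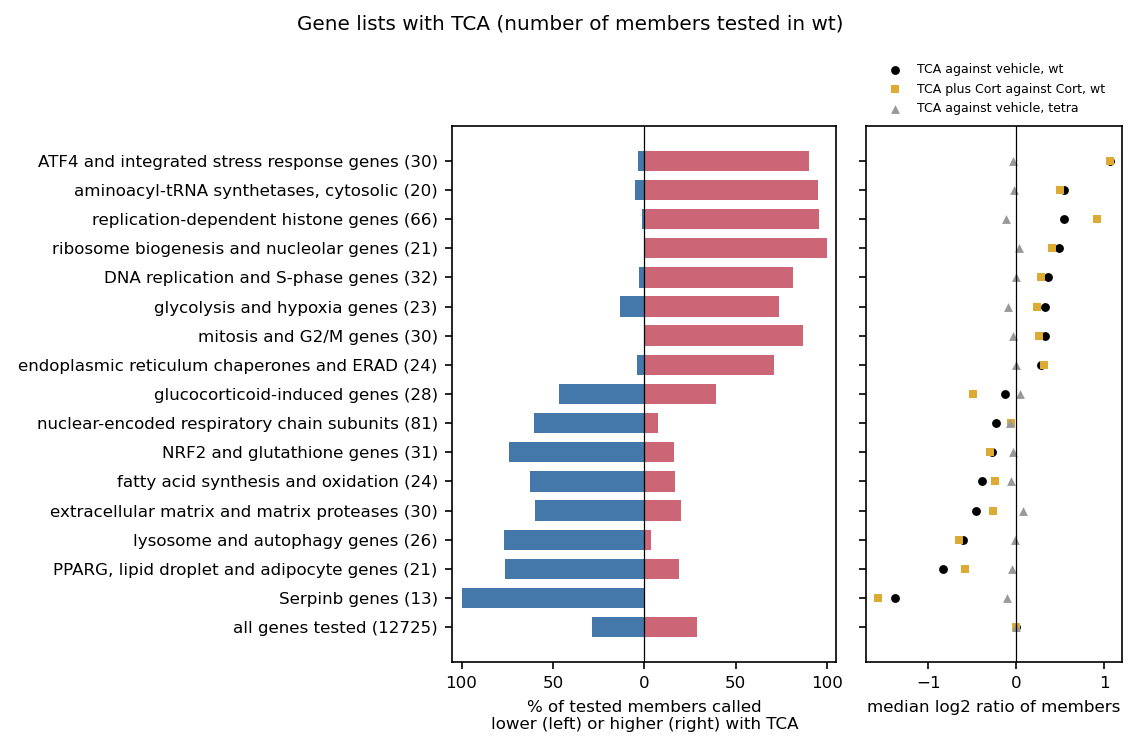
Left, the percentage of tested members of 16 gene lists, and of all genes, called lower (blue) or higher (red) with TCA in wt. Right, the median log2 ratio of the members in wt (circles), in TCA plus Cort against Cort (squares) and in tetra (triangles). Medians reach 1.07 for the stress response list and -1.38 for the Serpinb genes in wt, while those of tetra lie near 0.

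Lipid storage genes held some of the deepest falls. The nuclear receptor gene Pparg (chromosome 6, 115422066 to 115490401), master regulator of fat cells, had 1761, 1763 and 1682 in vehicle and 141, 155 and 166 with TCA. No TCA library came near a vehicle library, and Pparg was 11.3-fold lower (adjusted p = 6.84e-13). Its target Plin4 (chromosome 17, 56100591 to 56109802), which coats lipid droplets, had 33025, 33785 and 33577 and 3767, 3481 and 4269 (8.72-fold lower). Cidec, which fuses droplets, fell from 126 ± 25.0 to 8.72 ± 3.18, Plin2 from 11744 ± 302 to 3319 ± 114 (3.54-fold lower) and the acyltransferase gene Agpat2 from 2039 ± 65.5 to 840.1 ± 98.9 (2.43-fold lower). Of 21 tested genes of this list 16 fell and 4 rose, with a median log2 ratio of -0.83, and 10 of 31 listed were below the filter, among them the fat cell genes Adipoq and Cebpa, which were at 0 in all 6 libraries. The 4 rises were those of Fabp5 (2.12-fold), Cebpd (1.46-fold), Acsl1 (1.20-fold) and Cebpb (1.13-fold), which were named after their values were seen.

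Of 24 genes of fatty acid synthesis and oxidation 15 fell and 4 rose. Cpt1a, the gate of fatty acid entry into mitochondria, had 2894, 2626 and 2737 in vehicle and 1116, 1117 and 1352 with TCA (2.30-fold lower, adjusted p = 6.73e-09). Acadl and Acadvl, enzymes of oxidation, were 1.67-fold lower and 1.66-fold lower, and the brake on glucose oxidation Pdk4 was 1.74-fold lower. The elongase gene Elovl6 rose 1.61-fold, and Fasn, fatty acid synthase, which was named after its value was seen, rose 1.23-fold. Acly, which makes acetyl-CoA for synthesis, was not called (adjusted p = 0.0748, but higher at 0.0017 when scaled to exon reads). Cholesterol genes were divided, 9 of 27 higher and 10 lower (28.8% and 28.6% among all genes), with a median log2 ratio of -0.01. The sterol sensor gene Insig1 was 1.41-fold lower.

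Lysosome and autophagy genes fell in 20 of 26 cases and rose in 1, with a median log2 ratio of -0.60. Lamp1 (chromosome 8, 13159161 to 13175338), the main membrane protein of lysosomes, had 15274, 15187 and 15665 in vehicle and 8082, 8185 and 8569 with TCA, 1.86-fold lower (adjusted p = 1.62e-09). The protease genes Ctsb and Ctsd were 1.92-fold lower and 1.86-fold lower, and the proton pump gene Atp6v0d1 was 2.09-fold lower. Gpnmb, a glycoprotein of lysosome stress, went from 9141 ± 239 to 3594 ± 198 (2.54-fold lower). Flcn, folliculin, which holds back the lysosomal factors TFEB and TFE3, was 2.10-fold lower, and the autophagosome gene Map1lc3b 2.03-fold lower. Tfeb fell 1.63-fold and Tfe3, the 1 rise, was 1.14-fold higher, and both were named after their values were seen. The E-box was in 9 of 20 promoters of the list (45.0%) and in 996 of all 9535 (10.4%). It was not particular to falling lists. Among lists that mostly rose, it was in 4 of 12 synthetase promoters (33.3%), 5 of 21 endoplasmic reticulum promoters (23.8%) and 4 of 26 stress response promoters (15.4%). Among lists that mostly fell, it was in 2 of 15 lipid storage promoters (13.3%) and 1 of 26 NRF2 promoters (3.85%).

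**Figure D4:**
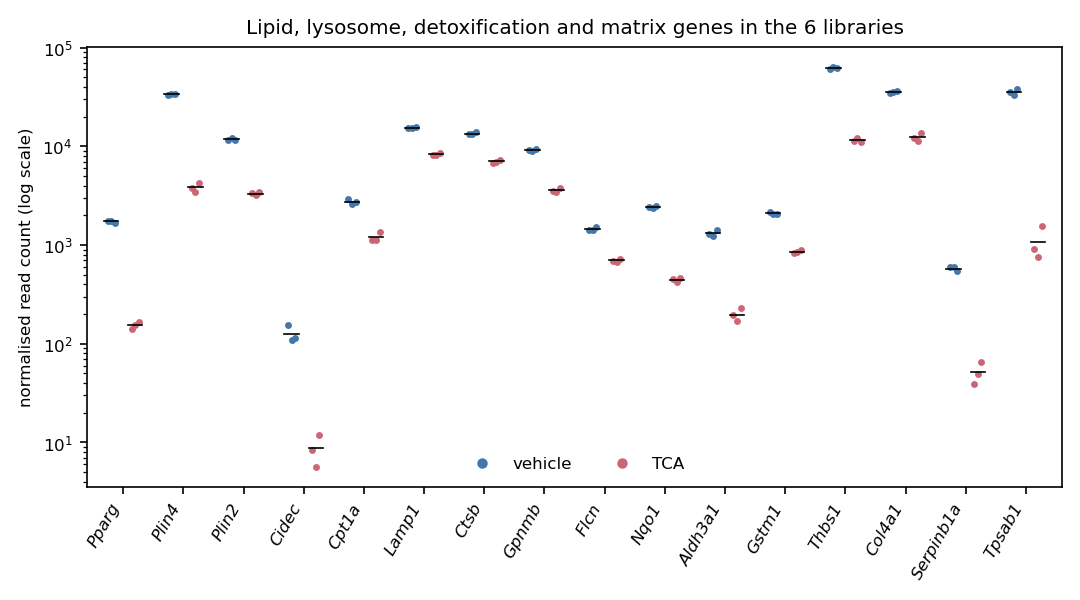
Normalised read counts (log axis) of 16 genes of lipid storage, lysosomes, detoxification, matrix and proteases in the 3 vehicle libraries (blue) and the 3 TCA libraries (red), with a black line at each group mean. For each of the 16 genes all TCA libraries lie below all vehicle libraries.

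NRF2 is the transcription factor of the antioxidant response, and the aryl hydrocarbon receptor drives detoxification genes. Of 31 NRF2 and glutathione genes 23 fell and 5 rose, with a median log2 ratio of -0.27. Nqo1, a quinone reductase of both programmes, had 2413, 2355 and 2483 in vehicle and 456, 421 and 459 with TCA. The groups were well separated, and Nqo1 was 5.43-fold lower (adjusted p = 1.25e-12). The aldehyde dehydrogenase gene Aldh3a1 had 1297, 1222 and 1429 and 193, 170.2 and 228 (6.68-fold lower). Gstm1, Gstm2 and Gsta2, glutathione transferases with close copies, were 2.48-fold lower, 2.57-fold lower and 2.33-fold lower, and the transferase gene Gsta3 went from 31.6, 21.0 and 20.9 in vehicle to 0 in all 3 TCA libraries (named after its values were seen). The iron storage genes Fth1 and Ftl1 were 1.82-fold lower and 1.36-fold lower and Hmox1 1.61-fold lower. The core gene Nfe2l2 was 1.16-fold lower, a call lost when scaled to exon reads (adjusted p = 0.0852). Slc7a11, a member shared with the stress response list, was the only gene of the 31 called at least 2-fold higher. Of 8 aryl hydrocarbon receptor genes 6 fell and none rose, and the receptor gene Ahr was at 309.6 ± 29.0 and 367 ± 37.8 (adjusted p = 0.0522, and 0.00993 with a rise when scaled to exon reads). Ahr was also called higher with a replicate block (limma adjusted p = 0.0265) and without vehicle library 3 (0.0322) or TCA library 2 (0.0162). The antioxidant element letters TGACNNNGC were in 9 of 26 promoters of the NRF2 list (34.6%) and in 1394 of all 9535 (14.6%). Shares were similar in lists that mostly rose, 8 of 26 stress response promoters (30.8%) and 6 of 21 endoplasmic reticulum promoters (28.6%). They were lower in the synthetase (2 of 12, 16.7%), lysosome (3 of 20, 15%) and lipid storage lists (2 of 15, 13.3%).

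Matrix genes fell in 18 of 30 cases and rose in 6. Thbs1 (thrombospondin 1, a matrix glycoprotein) had 60531, 63573 and 61814 in vehicle and 11364, 12076 and 10979 with TCA, 5.40-fold lower (adjusted p = 9.08e-13). The basement membrane collagen genes Col4a1 and Col4a2, which share a promoter, were 2.89-fold lower and 2.54-fold lower, and Col6a1 and Col6a2 2.55-fold lower and 2.08-fold lower. Postn fell from 49.99 ± 12.7 to 7.19 ± 2.18 and Fn1 was 1.55-fold lower. Timp3, a protease inhibitor, and Col1a1 rose, 2.26-fold and 1.66-fold, and the Timp3 call was lost without vehicle library 2 (adjusted p = 0.0527). Among TGF-beta genes the ligand genes Tgfb1 and Tgfb2 were 1.71-fold lower and 1.60-fold lower, the receptor gene Tgfbr2 1.48-fold lower and the target genes Id1 and Id3 1.51-fold lower and 1.42-fold lower. In that list 10 of 18 fell and 4 rose, with Smad3 1.73-fold higher and Skil 1.56-fold higher.

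A further group of falls came from multigene families. All 13 tested Serpinb genes, intracellular protease inhibitors, were called lower, 10 of them at least 2-fold, with a median log2 ratio of -1.38. Of 28 listed, 15 were below the filter, 9 of them at 0 in all 6 libraries, and with no filter 1 was called higher. Serpinb1a had 594, 592 and 540.0 in vehicle and 39.2, 49.4 and 65.8 with TCA (11.2-fold lower), Serpinb9b was 7.07-fold lower and Serpinb9e 5.40-fold lower. The Serpinb9 copies are alike and may share reads. All 4 tested proliferin genes, prolactin relatives that are nearly identical, were lower, and Prl2c2, Prl2c3 and Prl2c4 were 19.9-fold lower, 20.7-fold lower and 20.4-fold lower. Tpsab1 (chromosome 17, 25343245 to 25345562), a tryptase of mast cells, had 35083, 33439 and 38132 in vehicle and 913, 762 and 1559.9 with TCA, 33.0-fold lower (adjusted p = 2.49e-11). It made up nearly all reads of the 11 mast cell markers, whose summed counts were 33529 to 38228 in vehicle and 844 to 1638 with TCA, and the defining markers Kit and Cpa3 were at 0 in both. Further deep falls were those of Megf10 (16.4-fold), Tmem119 (9.30-fold), Anxa8 (8.52-fold), the keratin gene Krt14 (5.25-fold), the estrogen-binding receptor gene Gper1 (5.59-fold) and the PI3-kinase inhibitor gene Pik3ip1 (6.31-fold). Krt14 alone was called lower among 5 tested epithelial markers, of which 3 were called higher (0 at a filter of 50).

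Signalling genes moved in both directions, as did all genes tested, of which 28.8% were called higher and 28.6% lower. Of 24 MAP kinase feedback and EGF receptor genes 10 rose and 8 fell. Dusp6, a phosphatase of ERK, had 63.1, 74.7 and 83.4 in vehicle and 149, 159 and 183 with TCA (2.22-fold higher), and Etv4, a transcription factor downstream of ERK, rose 1.89-fold, while its relative Etv1 was 1.99-fold lower. Dusp4, a nuclear phosphatase of the same kinases, had 3831, 3764 and 3977 and 655, 568 and 843 (5.60-fold lower, adjusted p = 1.19e-10). The EGF receptor ligand gene Ereg rose 1.90-fold and the ligand gene Btc was 1.72-fold lower. Of 22 immediate early genes 8 rose and 9 fell, with Jun 1.51-fold higher and Nr4a2 1.78-fold higher, and with Egr3 1.86-fold lower, Klf6 1.77-fold lower and Junb 1.56-fold lower. The 8 rises were 4 without vehicle library 1 and 5 without vehicle library 3 or TCA library 3. The cyclooxygenase genes Ptgs1 and Ptgs2 were 4.68-fold lower and 1.54-fold lower. The chemokine genes Ccl2 and Ccl7 were 2.98-fold lower and 2.39-fold lower, against 1.58-fold and 1.43-fold rises of the NF-kappaB genes Rel and Nfkb1.

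Among clock genes 5 of 16 rose and 9 fell. Bhlhe41 was 2.63-fold lower, Per3 1.92-fold lower, Per2 1.87-fold lower and the clock output gene Dbp 1.88-fold lower, whereas Ciart rose 2.76-fold. Cell death regulators of the BCL2 family fell in 8 of 12 cases and rose in 1. Bmf, a starvation-linked death activator, went from 101 ± 8.49 to 19.7 ± 1.89, and the survival genes Bcl2l1 and Mcl1 were 1.35-fold lower and 1.23-fold lower. The cell cycle inhibitor gene Cdkn1a was 1.46-fold lower, while Gadd45b, like Gadd45a, rose (1.71-fold). Of 23 genes of the p53 list 8 rose and 10 fell, against 28.8% and 28.6% of all genes.

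Malat1 and Neat1, abundant nuclear RNAs, were lower. Malat1, a long noncoding RNA of nuclear speckles and the second most abundant transcript after Rn45s, had 587398, 589015 and 520081 in vehicle and 197623, 195548 and 165655 with TCA (3.04-fold lower, adjusted p = 3.11e-08). Neat1, the scaffold of paraspeckles, had 99329, 131526 and 114048 and 36356, 28208 and 35509 (3.45-fold lower). The snoRNA host genes Snhg5 and Snhg1 rose 2.25-fold and 1.60-fold. The RNase P and RNase MRP RNAs Rpph1 and Rmrp were 1.80-fold lower and 1.89-fold lower, and 16 of 64 small nuclear, nucleolar and RNase RNAs were called lower and 4 higher, against 28.6% of all genes called lower. The 4 rises were 1 at a filter of 50 and 2 without vehicle library 3 or TCA library 1 or 2. Rn45s was not called (adjusted p = 0.786), Actb was at 137099 ± 2483 and 125264 ± 7694 (adjusted p = 0.151, but lower at 0.00867 without TCA library 3 and at 0.0394 with limma voom), and Vim was 1.75-fold lower.

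Targets of the receptor were examined next. Among 28 tested genes that glucocorticoids induce, 11 were higher with TCA and 13 lower, against 28.8% and 28.6% of all genes. The median log2 ratio of the 28 was -0.13. Fkbp5, whose protein restrains the receptor, had 1283, 1263 and 1294 in vehicle and 1648, 1657 and 1647 with TCA (1.29-fold higher, adjusted p = 1.95e-05). Tsc22d3, which encodes the anti-inflammatory protein GILZ, had 511, 535 and 475 and 674, 658 and 602 (1.27-fold higher, adjusted p = 0.00118). Both were higher in all 3 TCA libraries, by less than the median fold of the called rises. The clock gene and receptor target Per1 had 369, 408 and 431 and 359, 357 and 409 (adjusted p = 0.349), with overlapping groups, and Dusp1 224 ± 21.6 and 244 ± 41.9 (adjusted p = 0.463). Sgk1, a kinase of ion transport, was 1.54-fold lower, at 3527 ± 179 and 2289.6 ± 314 (adjusted p = 1.21e-05), and the acute-phase gene Orm3, which has close paralogs, went from 122 ± 17.5 to 24.6 ± 3.56. Klf9 rose 1.19-fold, and Klf15, a metabolic transcription factor, rose from 1.09, 5.26 and 1.04 in vehicle to 36.4, 50.4 and 38.0 with TCA, at low counts. Hsd11b2, whose enzyme inactivates corticosterone, went from 25.1 ± 8.03 to 4.35 ± 2.31 (adjusted p = 0.000208).

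Bile acid receptors and transporters were sparse. Of 23 listed genes 16 were below the filter, and 5 of these, Cyp8b1, Fabp6, Nr0b2, Slc10a2 and Slc51b, were at 0 in all 6 libraries. Nr1h4 had 103, 116 and 86.5 in vehicle and 78.4, 57.0 and 51.9 with TCA (1.63-fold lower, adjusted p = 0.00375), and Vdr 1399 ± 109.5 and 972 ± 77.0 (1.44-fold lower, adjusted p = 2.32e-05). Gpbar1 was below the filter, at 10.9, 23.1 and 3.13 and 4.67, 7.61 and 7.41. Nr0b2 (SHP), the standard FXR target, gave no reads. Slc10a1, the hepatic bile salt importer, rose from 16.98 ± 3.24 to 31.9 ± 8.39 (adjusted p = 0.0173), a call lost without vehicle library 3 or TCA library 1 or 2 (adjusted p = 0.0653 to 0.0736), and S1pr2, a receptor of conjugated bile acids, was at 356 ± 17.7 and 387 ± 18.4 (adjusted p = 0.218, but higher at 0.0337 when scaled to exon reads).

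The same treatment was compared on top of Cort in 6 wt libraries that are not part of the vehicle comparison. TCA plus Cort against Cort gave 7385 called genes of 12806 (57.7%), 3730 higher (29.1%) and 3655 lower (28.5%). Of the 7296 genes called without Cort and tested here, 5654 were called in the same direction, which is 77.5% of that list and 76.8% of the 7364 called with Cort and tested in both, and 44 were called in the opposite direction. Of 764 genes with called differences of at least 2-fold, 682 were called in the same direction and 529 again reached 2-fold. The Pearson correlation of the log2 ratios over 12704 genes was 0.879, given as a description across genes that are not independent. Trib3 was 4.51-fold higher, with 1813, 2067 and 2035 in Cort and 9003, 9078 and 8599 in TCA plus Cort, and Pparg 9.35-fold lower, with 1405, 1427 and 1483 and 151, 157 and 153. Of the 30 stress response genes 27 rose and none fell, and of the 26 lysosome genes 18 fell and 2 rose. Exon reads were 65.6 to 66.6% of tags in the Cort libraries and 71.7 to 72.9% in the TCA plus Cort libraries, a separation like that without Cort. The Rn45s share did not overlap here either, at 18.2 to 21.6% in Cort and 25.6 to 28.6% in TCA plus Cort.

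The difference of the 2 TCA effects was then tested. It was called for 449 of 12806 genes (3.51%), 249 with a higher effect of TCA beside Cort (1.94%) and 200 with a lower one (1.56%). This count depended on single libraries: it was 1662 without TCA library 3, 231 and 235 without TCA libraries 1 and 2, 155 and 149 without TCA plus Cort libraries 1 and 2, and 154 without vehicle library 3. Sgk1 went from 9614 ± 586 in Cort to 3567 ± 248 in TCA plus Cort (2.695-fold lower), a larger fall than without Cort, by -0.80 ± 0.11 (SE) on the log2 scale (limma adjusted p = 0.000594). Tsc22d3, higher with TCA alone, was at 1560.5 ± 116 in Cort and 1395 ± 37.5 in TCA plus Cort (1.12-fold lower), and the effects differed by -0.50 ± 0.09 (adjusted p = 0.00431). For Fkbp5, at 1711 ± 51.3 and 1788 ± 86.2, the difference was -0.30 ± 0.07 (adjusted p = 0.0166). Per1 had 2805 ± 266 in Cort and 2181 ± 123 in TCA plus Cort (1.29-fold lower), and its difference of -0.26 ± 0.11 was not called (adjusted p = 0.178). Without an intensity trend in limma the differences of Tsc22d3 and Fkbp5 were not called (adjusted p = 0.0662 and 0.0785), nor was that of Fkbp5 without TCA plus Cort library 1 (0.075). Rpph1 was 1.80-fold lower with TCA alone and 1.74-fold higher beside Cort, a difference of 1.66 ± 0.13 (adjusted p = 4.65e-07). Of 30 stress response genes 1 differed upward and 1 downward, and of 29 glucocorticoid-induced genes 2 and 8. Many upward differences lay in other lists. They were called for 26 of 66 histone genes, 25 of 83 ribosomal protein genes and 13 of 81 respiratory chain subunits, with 0 downward in each. These counts depend on the processing. Without an intensity trend only 34 upward and 17 downward differences were called among all genes. Scaled to exon reads, 224 were upward and 280 downward. The lists were not counted again under either setting.

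In the tetra line the same dose and time of TCA gave 2 called genes of 13075 (0.0153%), both higher. They were Ccn1 (3663 ± 238 in vehicle and 8561 ± 1438 with TCA, adjusted p = 4.22e-05) and Ankrd1 (2466 ± 70.5 and 4543 ± 1067, adjusted p = 0.0186), both targets of the transcriptional coactivator YAP. Ankrd1 was not called without vehicle library 1 or 2 or TCA library 2 (adjusted p = 0.0898 to 0.229). In wt they were lower, 1.42-fold (adjusted p = 1.92e-05) and 1.68-fold (adjusted p = 7.97e-08), and the difference between the lines was -1.73 ± 0.13 for Ccn1 and -1.60 ± 0.15 for Ankrd1 on the log2 scale (limma adjusted p = 8.05e-09 and adjusted p = 7.79e-08). At an unadjusted limma p below 0.05 the tetra comparison gave 524 of 13075 genes and the wt comparison 7839 of 12725. The tetra share is below the 0.05 that this cut-off gives where nothing differs. The count of called genes in tetra was 6 without TCA library 1 or 3 and 1 without TCA library 2 or vehicle library 1 or 2. Exon reads were 68.1 to 70.4% of tags in the tetra vehicle libraries and 66.2 to 70.3% in the tetra TCA libraries. These ranges overlapped, unlike those in wt, and the part of this in the results was not tested. Each form of the receptor was read in a separate line, so the form and the line cannot be told apart.

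The 722 genes with called differences of at least 2-fold in wt and tested in tetra had a median absolute log2 ratio of 1.31 in wt. In the direction of the wt difference their median in tetra was -0.005, and 355 of the 722 had the same sign. In the tetra table, which the authors normalised apart from the wt table, Trib3 had 3318, 3896 and 3629.5 in vehicle libraries and 3436, 3640.2 and 3816 with TCA, Chac1 2155, 2261 and 1999 and 1539, 2123 and 2573, and Pparg 503, 412 and 473 and 503, 479 and 505. In all 3 genes the groups overlapped. Of 28 stress response genes tested there none was called, and their median log2 ratio was -0.04. The difference between the lines was called for 5296 of 12732 genes (41.6%), 2613 with a higher effect in wt (20.5%) and 2683 with a lower one (21.1%). It held for 25 of 29 stress response genes (higher in wt), 18 of 26 lysosome genes (lower in wt, 1 higher) and all 13 tested Serpinb genes (lower in wt). For Trib3 it was 2.11 ± 0.09 (adjusted p = 2.21e-11), for Pparg -3.59 ± 0.12 (adjusted p = 8.76e-14), and for Hspa5 0.99 ± 0.10 (adjusted p = 3.7e-07).

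**Figure D5:**
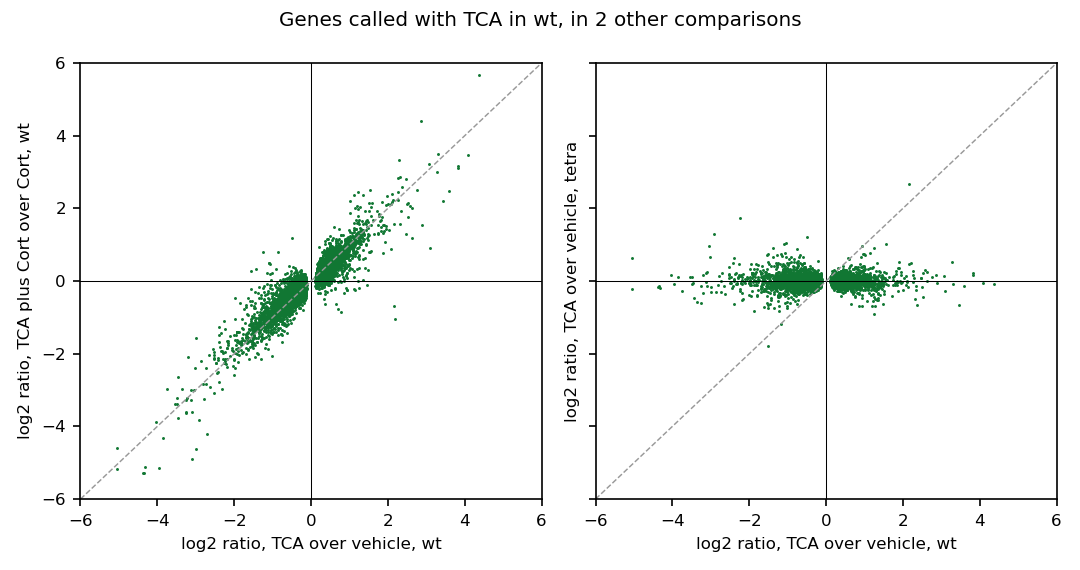
Log2 ratios of the genes called with TCA in wt (x axis in both panels) against TCA plus Cort over Cort in wt (left) and TCA over vehicle in tetra (right), 3 libraries a group. The dashed line marks equal ratios. Points on the left follow the dashed line, and points on the right lie along 0.

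The authors' deposited table for the wt libraries gives a fold change and adjusted p per gene, and none of its 25124 genes has an adjusted p below 0.05 (lowest 0.806). Its header command holds 5 group labels, 2 for vehicle and 3 for TCA, for 6 libraries. Across genes the log2 fold changes of the authors' deposited table had a Pearson r of 0.906 with the ratio of 3 TCA to 3 vehicle libraries, and of 0.9997 with a ratio that sets vehicle libraries 1 and 2 against vehicle library 3 with TCA libraries 1 and 2. The values of the 6 library columns were used here, and the fold changes of the authors' deposited table were not.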

How the data were processed

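Total RNA had been extracted, depleted of ribosomal RNA and made into stranded libraries, per the labels' protocols. Per the submitters' processing notes, cutadapt, STAR 2.7.0f and HOMER 4.10.4 were used with mm10. Per the file headers, exon reads were counted per gene with HOMER and variance-stabilised within each table of 6 libraries, so the deposited values are log2-like. Neither source gives a strand setting, so a gene and an overlapping antisense gene cannot be told apart. The fold changes and p-values of the authors' deposited table come from the same command. The headers name tag directories with Halo where the columns say GFP.

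Read counts were recovered by inverting the deposited scale, and 100% of the values below 1000 came out whole within 0.01. Counts of libraries held in both of 2 tables were equal for at least 99.42% of genes. Normalised counts are these counts divided by the size factors that the deposited scale implies. Levels and folds are means and ratios of normalised counts, while adjusted p-values come from limma 3.58.1 (R 4.3.3, intensity trend, two-sided, Benjamini-Hochberg over all genes tested) on the deposited log2 values, on which low counts are compressed. Genes entered the test at a mean of 10 normalised counts or more over all libraries of the fit. A gene low in 1 group could thus enter through the other alone. Examples are Car6, Fgf21 and Klf15 through TCA and Gsta3 through vehicle. The differences and the comparison with Cort were fitted on log2(normalised count + 1). For the comparison with Cort, counts of the 12 wt libraries were scaled together and the 4 wt groups shared 1 estimate of spread per gene. Genes of the tetra table were matched by symbol (22981) or transcript identifier (1997). Tables were handled with Python 3.11.15, pandas 2.3.3, numpy 2.4.6 and matplotlib 3.10.9. The test was also run on simulated counts, in which a small share of genes was changed and all genes had the same spread. That run used log2(normalised count + 1), not the deposited values, so it does not give the error rate for the 6 wt libraries.

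Exon reads ran from 22454000 to 27068000 per library, where 3 counts equal 0.111 to 0.134 CPM, a floor that covers counting error only. Replicates differed by more than sampling noise (chi-square per gene 3.83 to 6.81 between vehicle libraries, 6.29 between TCA libraries 1 and 2, and 17.5 and 33.8 between these and TCA library 3), so none was counted as a duplicate. Rn45s was included in this chi-square, so differences in its share raise the values. Alternatives were no trend, no filter or a filter of 50, scaling to exon reads without Rn45s, pseudocounts of 1 and 5, limma voom, a replicate block and leaving out each library. The tetra libraries with Cort were not used here.

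Members and lists were chosen with earlier results of these data known. Genes could be named as the 30 largest rises and 30 largest falls among called, non-overlapping genes with a mean of at least 50, as the 8 largest called changes and up to 4 uncalled members of a list, as 1 of a panel of 19 genes, as the 8 largest to either side of a difference, or as 1 of the 10 most abundant genes. Genes named at 0 or below the filter in all lists, and Col1a2, were named after their values were seen.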

Additional observations from a re-analysis of the deposited data

Results flagged for a closer look

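The effect of TCA differed between the wt and tetra lines for the genes that follow, by the limma test of the difference over 12 libraries (log2 scale, wt minus tetra, ± SE). For Trib3 the difference was 2.11 ± 0.09 (adjusted p = 2.21e-11), for Hspa5 0.99 ± 0.10 (adjusted p = 3.7e-07) and for Pparg -3.59 ± 0.12 (adjusted p = 8.76e-14). For Ccn1 it was -1.73 ± 0.13 (adjusted p = 8.05e-09) and for Ankrd1 -1.60 ± 0.15 (adjusted p = 7.79e-08), with higher counts after TCA in tetra and lower ones in wt. In these 5 differences the form of the receptor and the line cannot be told apart.

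The effect of TCA in wt also differed with and without Cort, by the limma test of that difference (log2 scale, with Cort minus without). It was -0.80 ± 0.11 for Sgk1 (adjusted p = 0.000594), -0.50 ± 0.09 for Tsc22d3 (adjusted p = 0.00431), -0.30 ± 0.07 for Fkbp5 (adjusted p = 0.0166), -1.22 ± 0.22 for Ccn2 (adjusted p = 0.00416) and 1.66 ± 0.13 for Rpph1 (adjusted p = 4.65e-07). Without an intensity trend the differences of Tsc22d3, Fkbp5 and Ccn2 were not called (adjusted p = 0.0662, 0.0785 and 0.0817). For Rpph1 the TCA libraries were lower than vehicle without Cort and higher than Cort with it.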

How the results depend on the processing

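Of 217 genes named as called in wt, 209 kept their direction and call under all of the up to 14 alternatives each, 8 lost the call under at least 1 (values beside each in the report), and none reversed. Of 15 named genes not called, 9 were called under at least 1. The count of 7303 called genes ran from 6852 to 7708 under the other alternatives and from 6434 to 7576 without 1 library. Reversed directions were seen for genes not called: scaled to exon reads, Atf5 was at 0.0028, Mki67 at 0.063 and Syvn1 at 0.013 (log2). Without 1 library the log2 values of Dusp1 ran from -0.0066 to 0.157, of Mki67 from -0.078 to 0.037, of Rn45s from -0.033 to 0.234 (the 3 sign changes without TCA library 3) and of Sel1l from -0.011 to 0.011 (sign change without vehicle library 2 or TCA library 2). In tetra the 2 called genes became 5 with no filter and 1 to 6 without 1 library. The difference between lines was called for 4527 to 5652 genes over all alternatives, and TCA plus Cort against Cort for 6618 to 7548. The difference with and without Cort, called for 449 genes, fell to 51 without the trend and 275 without the filter, and ran from 149 to 1662 without 1 library. The causes were not tested. Same-numbered wt libraries correlated in their deviations at 0.025, 0.10 and 0.26, so the numbers were not taken as pairs, and 1 of 3 vehicle libraries matched its own number best. With the replicate block the calls numbered 7708 in wt, 11 in tetra, 5097 and 237 for the differences between lines and with Cort, and 7124 for TCA plus Cort. With 3 libraries a group, genes of low counts are the least certain, and those under the filter were not tested.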

Other observations

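Integrin genes, which anchor cells to matrix, were lower in 5 of 10 tested cases and higher in 2 with TCA in wt. Itgb5 was 2.05-fold lower (8299 ± 73.5 and 4039 ± 135) and Itga3 1.47-fold lower, and the rises were those of Itgb7, described above, and Itga10 (2.57-fold). Among 18 YAP and TEAD targets 7 fell and 4 rose (28.6% and 28.8% among all genes), with Crim1 1.35-fold lower and Arhgef17 1.40-fold lower. Ccn2, a matricellular growth factor gene, went from 55.5, 30.5 and 54.2 in vehicle to 89.6, 88.4 and 91.7 with TCA (1.92-fold higher, adjusted p = 0.000771), and from 858, 914 and 856 in Cort to 759, 823 and 650.2 in TCA plus Cort (adjusted p = 0.193). Of 15 cyclic AMP genes 6 fell and 3 rose (4 and 5 when scaled to exon reads), Pde4b among the rises, while the adenylyl cyclase genes Adcy6 and Adcy7 were 1.68-fold lower and 1.48-fold lower and the kinase subunit gene Prkar2b 1.65-fold lower.

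Mammary genes and markers of other tissues differed as well. The mammary transcription factor gene Stat5a was 1.84-fold lower and Gata3 1.31-fold lower, against the rises of the caseins Csn3 and Csn1s1. The endothelial cadherin gene Cdh5 was 2.07-fold lower (264 ± 14.1 and 128 ± 19.5), with 7 of 9 endothelial markers below the filter. The macrophage markers Cd68 and Lyz2 were 1.93-fold lower and 1.78-fold lower (for Lyz2 adjusted p = 0.066 without vehicle library 1), with 8 of 11 immune markers below the filter and Adgre1, Cd3e and Tyrobp at 0 in all 6 libraries.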
